A study of Sus scrofa with 13 samples.

Results

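A set of 9 genes of the NRF2 antioxidant pathway and of glutathione synthesis was followed across pig embryos of 3 stages and 2 origins. The set named 10 genes by symbol (NFE2L2, KEAP1, NQO1, SLC7A11, GCLC, GCLM, GSS, HMOX1, SRXN1 and TXNRD1), and 9 of them were found among the 28232 rows of the deposited gene table. HMOX1 was not analysed here. The genes had been picked with their difference between IVF and in vivo embryos already known, so those values are given as a description and carry no p-value.

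The 13 libraries came from pools of preimplantation embryos of Sus scrofa in 5 groups. Embryos made by in vitro fertilisation (IVF) gave 4-cell embryos (3 libraries), blastocysts (3) and hatched blastocysts (3), and embryos that had developed in vivo gave blastocysts (2) and hatched blastocysts (2). The blastocyst is the stage at which a cavity and separate cell lineages have formed, and hatching is its escape from the zona pellucida. The labels used here give no breed, dam age, day of collection, culture medium or number of embryos per pool, and do not say whether pools came from separate litters or fertilisation rounds. Origin therefore cannot be told apart from any difference in animals, day or handling between the IVF and in vivo embryos.

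NRF2, the protein of NFE2L2, is a transcription factor that KEAP1 holds in the cytoplasm and hands over for degradation. When oxidants or electrophiles modify KEAP1, NRF2 accumulates and switches on genes that make and use glutathione, reduce thioredoxin and detoxify quinones. Glutathione is made from glutamate, cysteine and glycine by glutamate-cysteine ligase and then glutathione synthetase, and the supply of cysteine is usually limiting. In pig embryo culture, glutathione is commonly followed as a measure of redox state.

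Total counts lay between 33259311 and 39273867 per library. Oocyte marker messages summed to between 12920 and 21060 CPM (read counts scaled to library size with TMM factors) in 4-cell libraries and to at most 18.7 CPM in every other library. The 7 trophectoderm markers summed to between 20560 and 40190 CPM in blastocysts and hatched blastocysts and to between 94.1 and 616 CPM in 4-cell embryos, where CDX2 and KRT18 had no count. These markers thus separated the 4-cell libraries from the later ones as labelled, but do not tell hatched from unhatched blastocysts. Library 1 of the 4-cell embryos stood apart from the other 2 on the second principal component (-117.9, against 47.73 and 53.5), so results with 4-cell embryos are also given without it. One in vivo hatched library carries no number in the table and is called the unnumbered library.

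In the description by gene, values are CPM and libraries are in the order of their numbers. NFE2L2 (chromosome 15, 82967485 to 83146185 on Sscrofa11.1), which encodes NRF2, had 8.75, 26.8 and 52.1 CPM in IVF 4-cell embryos, 316, 433 and 287 CPM in IVF blastocysts and 615 and 455 CPM in in vivo blastocysts. Hatched blastocysts had 362, 354 and 304 CPM after IVF, against 306 CPM in library 2 and 218 CPM in the unnumbered library in vivo. The in vivo blastocysts were highest, and their range did not overlap that of any other group. The annotated span of NFE2L2 overlaps HNRNPA3 and AGPS, and without a stated counting rule its reads may be shared with them.

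KEAP1 (chromosome 2, 69280940 to 69290267), the sensor that restrains NRF2, had 0, 6.97 and 4.95 CPM in IVF 4-cell embryos, 153, 179 and 187 CPM in IVF blastocysts and 65.9 and 120 CPM in in vivo blastocysts. The 0 in 4-cell library 1 allows up to 0.0637 CPM, the value of 3 counts. In hatched blastocysts KEAP1 had 225, 196 and 247 CPM after IVF, against 202 CPM in library 2 and 221 CPM in the unnumbered library in vivo. In vivo blastocysts were thus lower than the other 3 groups of blastocysts and hatched blastocysts, with no overlap.

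SLC7A11 (chromosome 8, 88608083 to 88690589) is the light chain of the cystine importer that feeds cysteine to glutathione synthesis. It had 7.60, 36.1 and 58.0 CPM in IVF 4-cell embryos, 2.24, 1.87 and 9.49 CPM in IVF blastocysts and 62.5 and 73.9 CPM in in vivo blastocysts. After hatching, SLC7A11 had 6.35, 7.18 and 3.91 CPM in IVF embryos, against 0.641 CPM in library 2 and 0.762 CPM in the unnumbered library in vivo. Those in vivo hatched values rest on 24 and 25 reads. In vivo embryos therefore held both the highest and the lowest group of SLC7A11, while IVF blastocysts and IVF hatched blastocysts overlapped.

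GCLC (chromosome 7, 27209565 to 27253535) and GCLM (chromosome 4, 123371198 to 123390130) encode the catalytic and the modifier subunit of glutamate-cysteine ligase, the first enzyme of glutathione synthesis. GCLC had 63.4, 197 and 220 CPM in IVF 4-cell embryos, 35.6, 48.8 and 41.2 CPM in IVF blastocysts and 40.1 and 74.4 CPM in in vivo blastocysts. In hatched blastocysts GCLC had 53.4, 51.0 and 74.9 CPM after IVF, against 50.2 CPM in library 2 and 58.2 CPM in the unnumbered library in vivo. Outside the 4-cell stage its values stayed between 35.6 and 74.9 CPM. GCLM had 33.4, 17.3 and 6.94 CPM in IVF 4-cell embryos, 36.2, 41.5 and 54.5 CPM in IVF blastocysts and 77.8 and 144 CPM in in vivo blastocysts. In hatched blastocysts GCLM had 63.3, 55.7 and 47.7 CPM after IVF, against 70.2 CPM in library 2 and 71.4 CPM in the unnumbered library in vivo. Every in vivo library was above every IVF library for GCLM, at both stages.

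GSS (chromosome 17, 38316199 to 38342253), the glutathione synthetase of the second step, had 5.22, 7.48 and 11.4 CPM in IVF 4-cell embryos, 595, 484 and 502 CPM in IVF blastocysts and 514 and 428 CPM in in vivo blastocysts. At the hatched stage GSS had 495, 690 and 555 CPM after IVF, against 178 CPM in library 2 and 202 CPM in the unnumbered library in vivo. In vivo hatched blastocysts were set apart from the other 3 groups of blastocysts and hatched blastocysts, which overlapped. Its span overlaps the unnamed locus LOC106506661, which had at most 2.88 CPM in any library.

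NQO1 (chromosome 6, 17292962 to 17302593), a quinone reductase widely used as a readout of NRF2 activity, had 0, 2.14 and 0 CPM in IVF 4-cell embryos, 6.63, 8.07 and 11.2 CPM in IVF blastocysts and 3.06 and 13.8 CPM in in vivo blastocysts. In hatched blastocysts it had 34.8, 23.3 and 21.9 CPM after IVF, against 0.828 CPM in library 2 and 0.884 CPM in the unnumbered library in vivo, where it was read 31 and 29 times. The IVF hatched libraries were above all others, and the in vivo blastocysts spanned the range of the IVF blastocysts.

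SRXN1 (chromosome 17, 34582377 to 34589308) encodes sulfiredoxin, which repairs over-oxidised peroxiredoxins. It had 33.8, 0.320 and 2.97 CPM in IVF 4-cell embryos, 165, 124 and 139 CPM in IVF blastocysts and 136 and 220 CPM in in vivo blastocysts. Hatched blastocysts had 229, 252 and 250 CPM after IVF, against 44.1 CPM in library 2 and 82.6 CPM in the unnumbered library in vivo. IVF hatched blastocysts were again the highest group, with no overlap, and among blastocysts and hatched blastocysts the in vivo hatched group was the lowest.

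TXNRD1 (chromosome 5, 80170334 to 80213889), the cytosolic thioredoxin reductase, had 270, 149 and 107 CPM in IVF 4-cell embryos, 428, 428 and 505 CPM in IVF blastocysts and 317 and 526 CPM in in vivo blastocysts. At the hatched stage TXNRD1 had 595, 596 and 787 CPM after IVF, against 557 CPM in library 2 and 587 CPM in the unnumbered library in vivo. Its range over the blastocyst and hatched libraries was narrow beside that of NQO1 or SLC7A11.

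**Figure D1:**
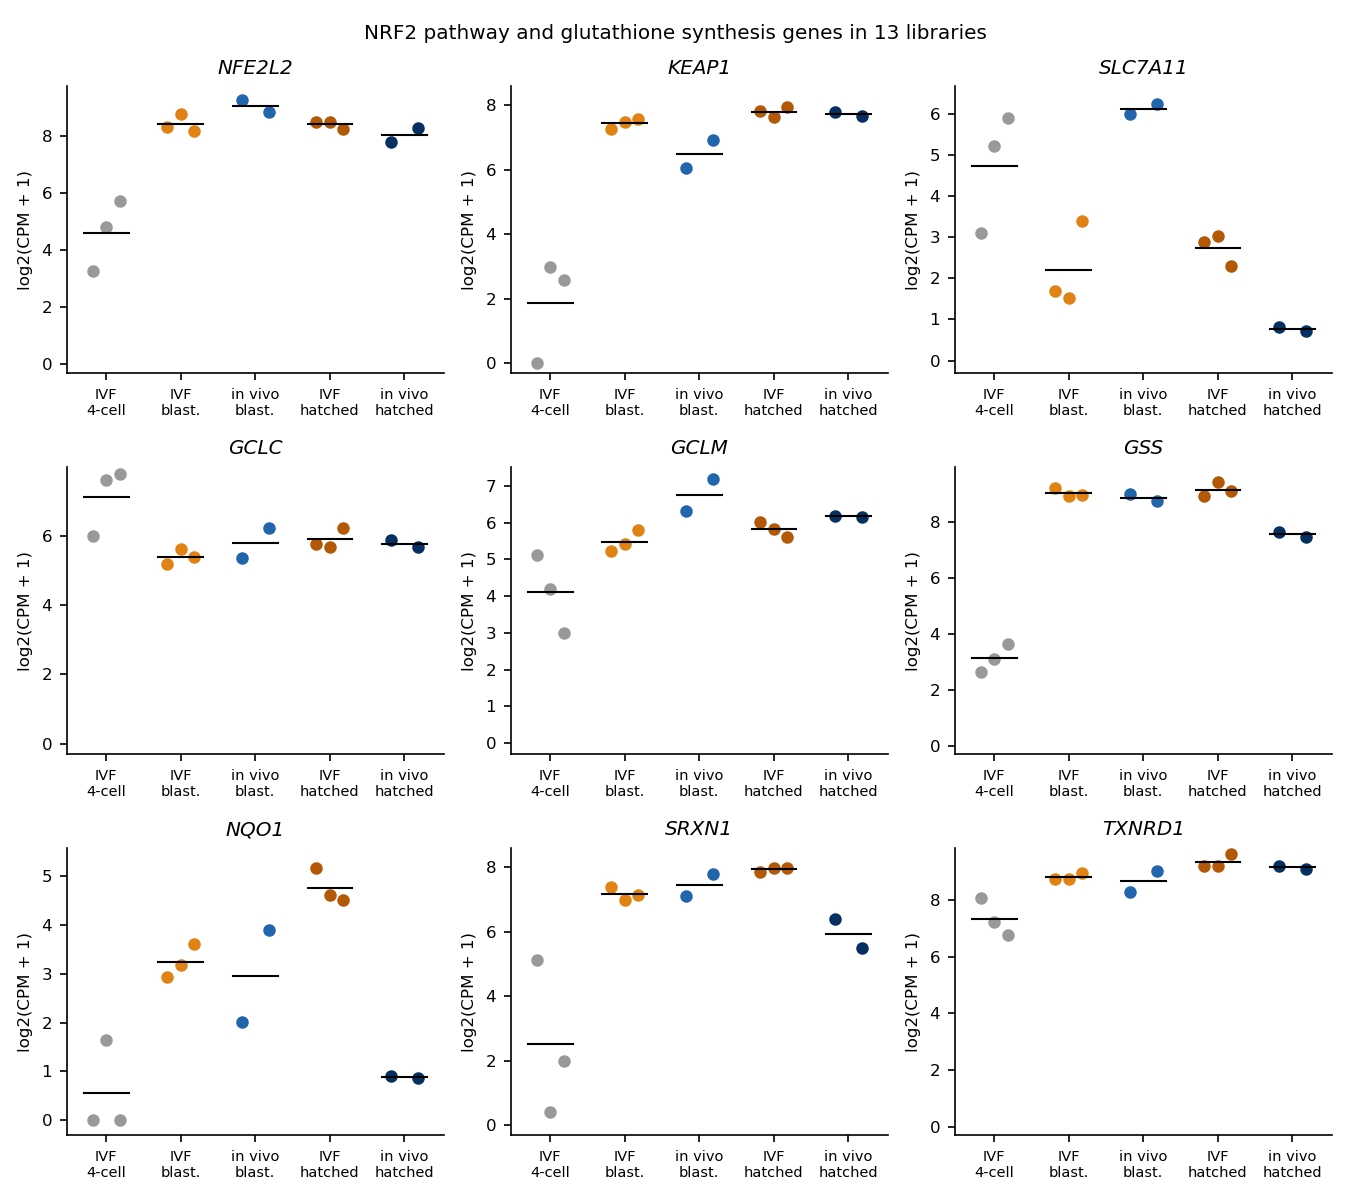
Level of each of the 9 genes in the 13 libraries, as log2(CPM + 1). Points are libraries and bars are group means. IVF 4-cell embryos, IVF blastocysts and IVF hatched blastocysts have 3 points each, and both in vivo groups have 2. NQO1, GSS and SRXN1 are low in both in vivo hatched libraries, SLC7A11 is high in both in vivo blastocyst libraries, and all of the genes except GCLC and SLC7A11 are lowest on average in 4-cell embryos.

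Per transcript length, on the deposited TPM scale, GSS was the most abundant of the 9 messages in IVF blastocysts (457 ± 45.0 TPM, SD), in vivo blastocysts (394 ± 8.30 TPM) and IVF hatched blastocysts (496 ± 70.4 TPM). The unnumbered library was not used on this scale, so in vivo hatched blastocysts are given by library 2, with no SD. There GSS came second at 170.2 TPM, below TXNRD1 at 292 TPM. TXNRD1 was also the most abundant in 4-cell embryos, with 127 ± 80.3 TPM, where GCLC followed with 91.6 ± 40.3 TPM. The 9 messages together came to between 222 and 330 TPM in 4-cell libraries, between 949 and 999.8 TPM in IVF blastocysts, and to 804 and 1073 TPM in in vivo blastocysts. They summed to between 1125 and 1352 TPM in IVF hatched blastocysts, against 739 TPM in library 2 of the in vivo hatched blastocysts.

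Messages of proteins that act as pairs were set side by side as TPM ratios. GCLC over GCLM was 2.48, 14.6 and 41.6 in the 4-cell libraries, between 0.970 and 1.53 in IVF blastocysts, against 0.671 and 0.684 in in vivo blastocysts. In hatched blastocysts that ratio was between 1.08 and 2.05 after IVF, against 0.919 in library 2 in vivo. The message of the catalytic subunit was thus in excess in all 3 libraries of the early embryo, and the ratio lay above the in vivo values in all 3 IVF libraries at either later stage. KEAP1 over NFE2L2 was between 1.29 and 2.03 in IVF blastocysts, against 0.348 and 0.854 in in vivo blastocysts. In hatched blastocysts it was between 1.78 and 2.54 after IVF, against 2.04 in library 2 in vivo, within the IVF range. SLC7A11 works as a dimer with SLC3A2, and SLC7A11 over SLC3A2 averaged 4.12 in 4-cell embryos, 0.00790 in IVF blastocysts and 0.0688 in in vivo blastocysts. In hatched blastocysts the SLC7A11 over SLC3A2 ratio averaged 0.0107 after IVF, against 0.000457 in library 2 in vivo. TXNRD1 over TXN was between 0.059 and 0.101 in IVF blastocysts, against 0.251 and 0.431 in in vivo blastocysts. In hatched blastocysts it was between 0.0950 and 0.140 after IVF, against 0.762 in library 2 in vivo. SRXN1 over PRDX1 was between 0.0798 and 0.140 in IVF blastocysts, against 0.436 and 0.697 in in vivo blastocysts. In hatched blastocysts it was between 0.0896 and 0.188 after IVF, against 0.0353 in library 2 in vivo.

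In IVF hatched blastocysts, NQO1, SLC7A11, SRXN1 and GSS were higher than in in vivo hatched blastocysts. NQO1 averaged 26.7 ± 7.04 CPM after IVF and 0.856 ± 0.0401 CPM in vivo (SD, n = 3 and 2), a difference of 4.97 ± 0.65 on the log2 scale (SE), or 31.4-fold. SLC7A11 averaged 5.82 ± 1.70 CPM after IVF and 0.702 ± 0.0860 CPM in vivo, with a log2 difference of 3.06 ± 0.69. SRXN1 averaged 244 ± 12.7 CPM after IVF and 63.3 ± 27.2 CPM in vivo, with a log2 difference of 1.96 ± 0.30. GSS averaged 580 ± 99.8 CPM after IVF and 189.6 ± 17.1 CPM in vivo, with a log2 difference of 1.63 ± 0.22. All 4 had IVF and in vivo ranges that did not overlap. In a bulk library, fewer cells of a type and less RNA per cell cannot be told apart.

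The other 5 genes were not called in hatched blastocysts. The log2 differences, IVF over in vivo, were 0.39 ± 0.25 for NFE2L2, 0.09 ± 0.25 for KEAP1, 0.16 ± 0.29 for GCLC, -0.33 ± 0.28 for GCLM and 0.22 ± 0.24 for TXNRD1. By the edgeR test with Benjamini-Hochberg adjustment, 4 of 9 genes were called, all higher after IVF, where 11.8% of all 15528 genes tested were called, 6.96% higher and 4.88% lower. The median of the 9 was 0.39, and that of all genes 0.04. These are the differences the genes were picked on, so the counts describe the choice. SLC7A11 lost its call without either in vivo hatched library (3.19 without the unnumbered library and 2.93 without library 2), and with the 4-cell libraries in the same fit none of the 4 was called.

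In blastocysts the pattern was a different one. SLC7A11 was lower after IVF, at 4.53 ± 4.30 CPM, against 68.2 ± 8.12 CPM in vivo (SD, n = 3 and 2), a log2 difference of -3.92 ± 0.60. In vivo blastocysts held 15.2-fold more of this message, and without library 3 of the IVF blastocysts, the highest of the 3, the log2 difference was -5.04. GCLM was also lower, at 44.0 ± 9.43 CPM after IVF and 110.7 ± 46.5 CPM in vivo, with a log2 difference of -1.33 ± 0.27. KEAP1 was higher, at 173 ± 17.6 CPM after IVF and 93.1 ± 38.5 CPM in vivo, with a log2 difference of 0.89 ± 0.25. The GSS difference was 0.16 ± 0.21 and the NQO1 difference 0.04 ± 0.51, both with overlapping ranges and not called.

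For the rest, the blastocyst difference was -0.64 ± 0.24 for NFE2L2, whose ranges were apart, -0.45 ± 0.29 for GCLC, -0.32 ± 0.28 for SRXN1 and 0.11 ± 0.24 for TXNRD1. In all, 3 of 9 genes were called in blastocysts, 1 higher and 2 lower, where 10.8% of all genes tested were called, 6.09% higher and 4.74% lower. The median of the 9 was -0.32, and that of all genes 0.05. As in hatched blastocysts, these counts describe the choice of genes. KEAP1 lost its call when any single library of IVF blastocysts or IVF hatched blastocysts, or library 1 of the in vivo blastocysts, was left out, with 0.54 in the last case. GCLM lost its call without library 2 of the in vivo blastocysts (-0.84) and without library 1 of the IVF blastocysts (-1.21), and with the 4-cell libraries in the same fit none of the 3 was called.

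**Figure D2:**
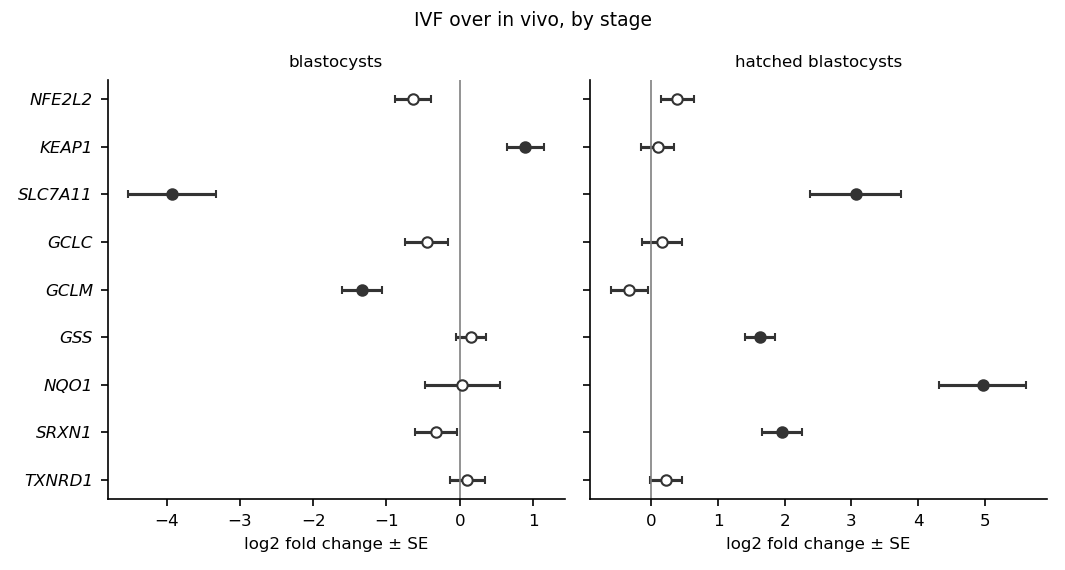
Log2 fold change of IVF over in vivo embryos for the 9 genes, in blastocysts and in hatched blastocysts, with standard errors. Filled points were called at an adjusted p under 0.05 over all genes. The x axes differ between panels. SLC7A11 lies at -3.92 in blastocysts and at 3.06 in hatched blastocysts, and NQO1 at 0.04 and 4.97.

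Hatched and unhatched blastocysts of in vivo embryos also differed in these genes. Both in vivo groups also enter the differences on which the genes were picked, so the p-values here are not independent of that choice. SLC7A11 fell to 0.702 CPM in in vivo hatched blastocysts, against 68.2 CPM in in vivo blastocysts, which is 98.9-fold (log2 -6.63 ± 0.81, edgeR adjusted p = 0.000889). NQO1 fell to 0.856 CPM, against 8.43 ± 7.60 CPM (log2 -3.32 ± 0.63, edgeR adjusted p = 0.00628). GSS fell to 189.6 CPM, against 471 ± 60.6 CPM (log2 -1.35 ± 0.23, edgeR adjusted p = 0.00409). SRXN1 fell to 63.3 CPM, against 178 ± 59.1 CPM (log2 -1.52 ± 0.32, edgeR adjusted p = 0.00985). The regulators moved apart, since NFE2L2 fell by 1.06 ± 0.27 (edgeR adjusted p = 0.025) while its inhibitor KEAP1 rose by 1.15 ± 0.27 (edgeR adjusted p = 0.018).

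GCLM, with a log2 change of -0.67 ± 0.31 (edgeR adjusted p = 0.163), GCLC, with -0.11 ± 0.32 (edgeR adjusted p = 0.873), and TXNRD1, with 0.41 ± 0.26 (edgeR adjusted p = 0.303), did not pass the test between in vivo hatched blastocysts and in vivo blastocysts. Altogether 6 of 9 genes were called, 1 higher and 5 lower in hatched blastocysts, against 14.3% of all genes tested (6.96% higher and 7.39% lower), and the median was -1.06, against -0.01 for all genes. This comparison shares its in vivo libraries with those of IVF against in vivo embryos, so extreme values enter both. The counts therefore partly describe the choice of genes. NFE2L2 lost its call without library 1 of the in vivo blastocysts (-0.78, edgeR adjusted p = 0.169) and without the unnumbered library (-0.83, edgeR adjusted p = 0.112). KEAP1 lost its call without library 1 of the in vivo blastocysts (0.82, edgeR adjusted p = 0.107), and SRXN1 without library 2 of the in vivo hatched blastocysts (-1.13, edgeR adjusted p = 0.0621). With only these 4 libraries in the fit, or with the 4-cell libraries added, SLC7A11 alone of the 9 was called. The NQO1 change was -3.99 without library 1 of the in vivo blastocysts and -1.87 without library 2.

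Between IVF hatched blastocysts and IVF blastocysts, none of the 9 genes passed the edgeR test, which called 7 of all genes (0.0451%), all lower in hatched blastocysts. Both IVF groups also enter the differences on which the genes were picked, so the p-values of the 9 here are not independent of that choice. At an unadjusted p under 0.05, 594 of all genes and 3 of the 9 stood out, and DESeq2 called 51 of all genes. NQO1 had 26.7 ± 7.04 CPM in IVF hatched blastocysts and 8.64 ± 2.35 CPM in IVF blastocysts, with ranges apart (log2 1.62 ± 0.46, edgeR adjusted p = 0.973). Without the filter on low counts, NQO1 was called (edgeR adjusted p = 0.00443). SRXN1 had 244 ± 12.7 CPM in IVF hatched blastocysts and 142 ± 20.5 CPM in IVF blastocysts (log2 0.76 ± 0.25). KEAP1 (0.35 ± 0.22), GCLC (0.50 ± 0.26) and TXNRD1 (0.53 ± 0.21) also had hatched values above every unhatched one. SLC7A11 (0.36 ± 0.52), GCLM (0.32 ± 0.25), GSS (0.13 ± 0.18) and NFE2L2 (-0.04 ± 0.22) had overlapping ranges.

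The change at hatching was then compared between origins, as the IVF change minus the in vivo change on the log2 scale. This quantity is also the IVF over in vivo difference in hatched blastocysts minus that in blastocysts, on which the genes were picked, so it is given as a description with no p-value for the 9 genes. It was 6.98 ± 0.93 for SLC7A11, 4.93 ± 0.78 for NQO1, 2.28 ± 0.40 for SRXN1 and 1.47 ± 0.29 for GSS. These 4 of 9 were called, all more positive after IVF, where 4.71% of all genes tested were called, 2.79% more positive and 1.93% more negative. The difference was 1.03 ± 0.35 for NFE2L2, 1.00 ± 0.40 for GCLM, -0.80 ± 0.35 for KEAP1, 0.61 ± 0.41 for GCLC and 0.12 ± 0.33 for TXNRD1. The counts describe the choice of genes.

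In this difference GSS lost its call without library 1 of the in vivo blastocysts (1.29), library 2 of the in vivo hatched blastocysts (1.37) or library 3 of the IVF blastocysts (1.41). KEAP1 gained a call without library 2 of the in vivo blastocysts (-1.28), and DESeq2 also called NFE2L2 (1.01). NQO1 stood at 5.61 without library 1 and at 3.49 without library 2 of the in vivo blastocysts, and SLC7A11 at 8.09 without library 3 of the IVF blastocysts. None of the 9 was called with the 4-cell libraries in the same fit.

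**Figure D3:**
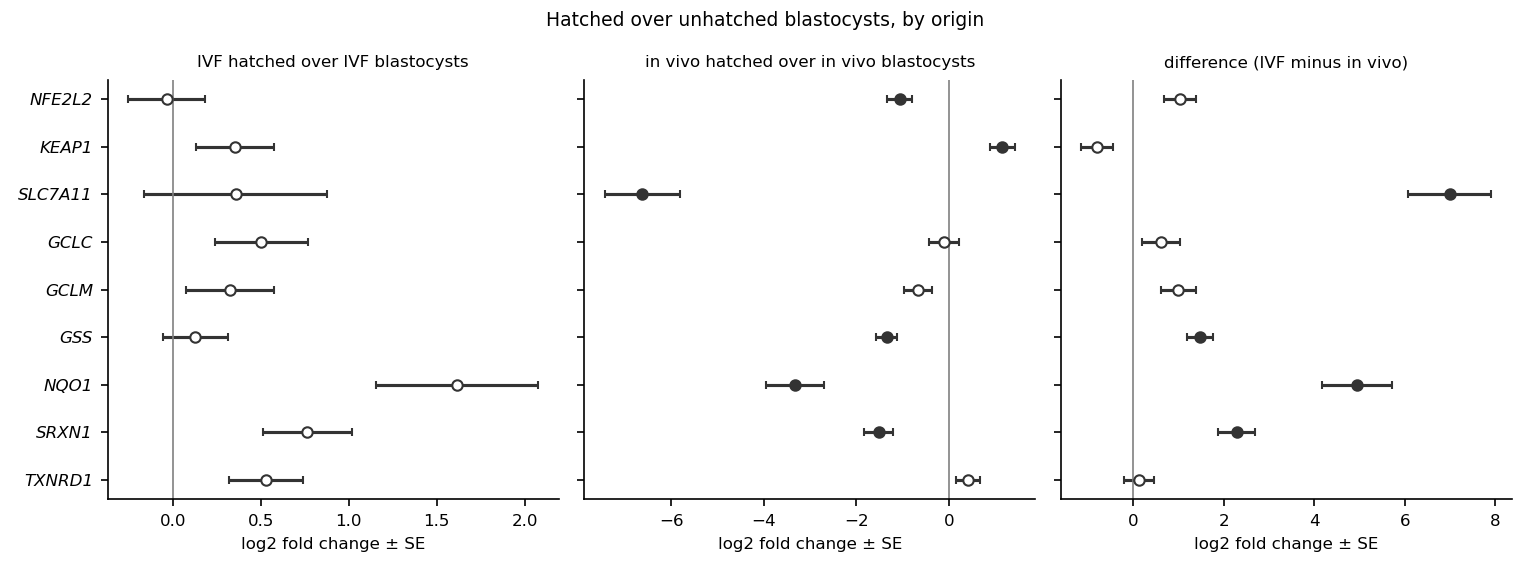
Log2 fold change of hatched over unhatched blastocysts for the 9 genes, after IVF and in vivo, and the difference between these changes (IVF minus in vivo), with standard errors. Filled points were called at an adjusted p under 0.05 over all genes, and the x axes differ between panels. No point is filled for IVF, 6 are filled for in vivo, and SLC7A11, GSS, NQO1 and SRXN1 are filled in the difference.

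Some marker lists of cell types, but not all, set the in vivo hatched group apart. Hypoblast markers, of the primitive endoderm layer, summed to 290.1 and 921 CPM in in vivo hatched blastocysts, against 172 and 238 CPM in in vivo blastocysts, and lay between 176 and 249 CPM in IVF hatched blastocysts and between 218 and 247 CPM in IVF blastocysts. Of the 8 hypoblast markers, 6 were called lower in IVF than in in vivo hatched blastocysts, where 4.88% of all genes were. The other 2 were not called and had positive log2 differences of at most 0.32. Between in vivo hatched and in vivo blastocysts, all 8 had a positive change and 5 were called higher, where 6.96% of all genes were. The hypoblast factor SOX17 had 0.857 to 5.78 CPM in IVF hatched blastocysts, against 32.9 CPM in the unnumbered library and 81.9 CPM in library 2 of the in vivo hatched blastocysts. PDGFRA had 3.94 to 5.38 CPM in IVF hatched blastocysts, against 21.8 CPM in the unnumbered library and 221 CPM in library 2. The list of 11 cumulus and granulosa markers summed to 168 and 220 CPM in in vivo hatched blastocysts, within the 77.9 to 228 CPM of IVF hatched blastocysts. It summed to 16.9 and 20.6 CPM in in vivo blastocysts and to 30.1 to 122 CPM in IVF blastocysts. Its gonadotropin receptors FSHR and LHCGR had no count in any library. The 6 epiblast markers went both ways between IVF and in vivo hatched blastocysts, with POU5F1 (1.13 ± 0.28, edgeR adjusted p = 0.0239) and DPPA5 (2.45 ± 0.31, edgeR adjusted p = 0.00088) higher, 3 with a log2 difference below 0 that did not pass, and a median of 0.17. Their sum was 822 to 1098 CPM in IVF hatched blastocysts, against 344 and 586 CPM in in vivo hatched blastocysts and 787 and 949.6 CPM in in vivo blastocysts. Of the 8 stroma and vessel markers, 4 had counts in each hatched group, and LUM, CDH5 and VWF were at 0 in both. The list summed to 2.91 to 7.26 CPM in IVF hatched blastocysts, against 12.7 and 54.3 CPM in in vivo hatched blastocysts. Trophectoderm markers summed to 23090 to 34310 CPM in IVF hatched blastocysts, against 20560 and 34090 CPM in in vivo hatched blastocysts. The part of cell composition in the results above was not tested.

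Between IVF blastocysts and 4-cell embryos, GSS, NFE2L2, KEAP1, SRXN1 and TXNRD1 were higher in blastocysts, and GCLC and SLC7A11 were lower. GSS averaged 527 ± 59.8 CPM in IVF blastocysts and 8.05 ± 3.14 CPM in 4-cell embryos (SD, n = 3 each), a log2 difference of 5.93 ± 0.42 or 60.9-fold (edgeR adjusted p = 2.6e-05). NFE2L2 averaged 345 ± 77.0 CPM in IVF blastocysts and 29.2 ± 21.8 CPM in 4-cell embryos (log2 3.45 ± 0.60, edgeR adjusted p = 0.00153). KEAP1 averaged 173 ± 17.6 CPM in IVF blastocysts and 3.97 ± 3.59 CPM in 4-cell embryos (log2 5.33 ± 1.39, edgeR adjusted p = 0.0104). Both regulators were thus low in 4-cell embryos, with no KEAP1 read in 4-cell library 1. Values in these comparisons are relative to the other messages of libraries enriched on oligo(dT) beads, and are not amounts per embryo. GCLC averaged 41.9 ± 6.62 CPM in IVF blastocysts and 160.3 ± 84.8 CPM in 4-cell embryos (log2 -2.05 ± 0.48, edgeR adjusted p = 0.00598).

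SLC7A11 fell by 3.03 ± 0.88 in IVF blastocysts (edgeR adjusted p = 0.0168), although its highest blastocyst library (9.49 CPM) exceeded its lowest 4-cell library (7.60 CPM). TXNRD1 rose by 1.28 ± 0.36 (edgeR adjusted p = 0.0144) and SRXN1 by 3.45 ± 1.23 (edgeR adjusted p = 0.039). NQO1 (3.48 ± 1.59, edgeR adjusted p = 0.0897) and GCLM (1.11 ± 0.51, edgeR adjusted p = 0.0909) did not pass. So 7 of 9 genes were called, 5 higher and 2 lower, where 56.3% of all 16312 genes tested were called, 25.7% higher and 30.6% lower. The median of the 9 was 3.45, and that of all genes -0.23. SLC7A11 lost its call without library 3 of the 4-cell embryos (-2.35, edgeR adjusted p = 0.0559), library 1 (-2.68, edgeR adjusted p = 0.065) or library 2 (-2.55, edgeR adjusted p = 0.0672) of the IVF blastocysts. SRXN1 lost its call without library 3 of the 4-cell embryos (3.01, edgeR adjusted p = 0.0958) or any single IVF blastocyst or IVF hatched library, with an adjusted p of at most 0.0958. Without 4-cell library 3 NFE2L2 stood at 4.21, without 4-cell library 2 KEAP1 at 6.10, and without library 3 of the IVF blastocysts SLC7A11 at -4.13. NQO1 was called without 4-cell library 2, which held all of its 4-cell reads.

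Without 4-cell library 1, 8 of 9 genes were called, against 66.0% of all genes. GCLM then passed (1.87, edgeR adjusted p = 0.00522), NQO1 did not (3.01, edgeR adjusted p = 0.066), and SRXN1 stood at 6.44 (edgeR adjusted p = 0.000458). The others were at 5.80 for GSS, 4.86 for KEAP1, 3.13 for NFE2L2, 1.83 for TXNRD1, -2.31 for GCLC and -3.38 for SLC7A11, with the largest edgeR adjusted p at 0.00405. The oocyte markers named above moved with this comparison, and the part of maternal messages in it was not tested.

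All 9 genes were called between IVF hatched blastocysts and 4-cell embryos, where 56.6% of all genes were, 25.7% higher and 30.9% lower. GSS (6.06 ± 0.42), KEAP1 (5.69 ± 1.42), NQO1 (5.11 ± 1.71), SRXN1 (4.22 ± 1.28), NFE2L2 (3.42 ± 0.60), TXNRD1 (1.82 ± 0.37) and GCLM (1.44 ± 0.51) were higher in hatched blastocysts, and SLC7A11 (-2.66 ± 0.87) and GCLC (-1.53 ± 0.47) were lower. Their edgeR adjusted p lay between 2.39e-05 for GSS and 0.0376 for GCLM. GCLC ranges overlapped here. Without 4-cell library 1 all 9 were called too, with SRXN1 at 7.20, GCLM at 2.19 and TXNRD1 at 2.36. Leaving out any other single library of the fit ended between 1 and 4 of these calls and left no fewer than 5. The calls lost were among GCLM, SLC7A11, GCLC, NQO1 and SRXN1. NFE2L2 stood at 4.18 and SLC7A11 at -1.99 without 4-cell library 3, and KEAP1 at 6.46 without 4-cell library 2. Both 4-cell comparisons share the same 4-cell libraries.

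**Figure D4:**
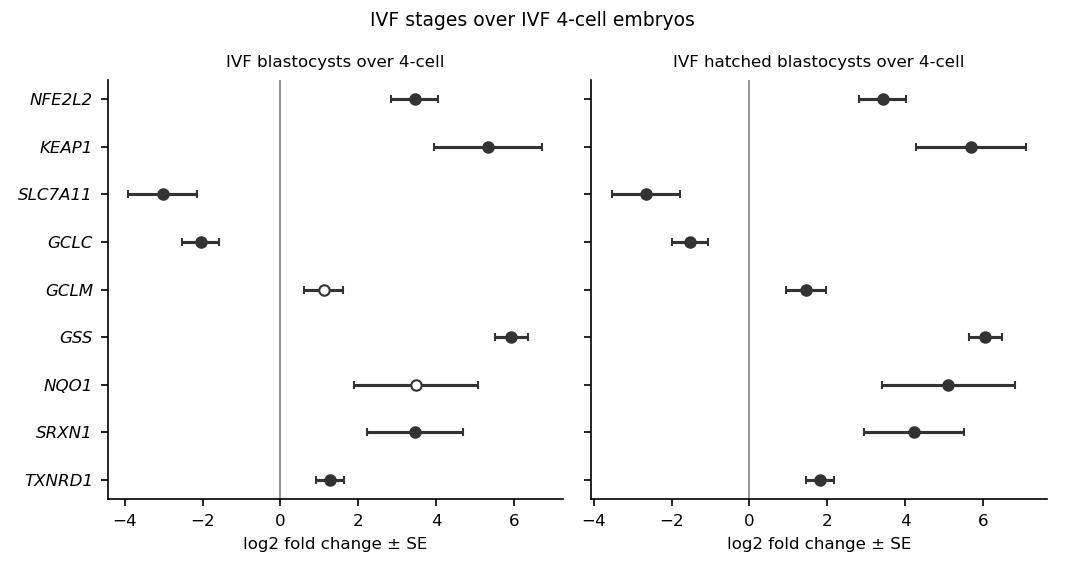
Log2 fold change over IVF 4-cell embryos for the 9 genes, in IVF blastocysts and in IVF hatched blastocysts, with standard errors. Filled points were called at an adjusted p under 0.05 over all genes. GSS lies near 6 in both panels, SLC7A11 and GCLC lie below 0 in both, and GCLM and NQO1 are filled only in the panel of hatched blastocysts.

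Wider lists of the pathway, also chosen with earlier results of these data known, were read beside the 9 genes. The p-values and counts of the lists, here and below, may therefore not be independent of that choice. In hatched blastocysts, 6 of 19 other NRF2 targets were higher after IVF and 1 was lower, with a median log2 difference of 0.98. Over all genes in this comparison 6.96% were higher and 4.88% lower, with a median of 0.04, and the counts of the lists stand beside that share. Ferritin light chain FTL, an iron store, rose by 1.58 ± 0.24 (edgeR adjusted p = 0.00216) and the biliverdin reductase BLVRB by 1.41 ± 0.28 (edgeR adjusted p = 0.00914), while the exporter ABCC4 fell by 4.97 ± 0.76 (edgeR adjusted p = 0.00243). Of 6 genes that supply NADPH, the reducing power for glutathione and thioredoxin, 3 were higher after IVF and none lower. They were malic enzyme ME1 (2.16 ± 0.41, edgeR adjusted p = 0.00714), transaldolase TALDO1 (0.86 ± 0.18, edgeR adjusted p = 0.0113) and isocitrate dehydrogenase IDH1 (0.93 ± 0.21, edgeR adjusted p = 0.0164).

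Among 21 genes that use glutathione, 7 were higher and 1 was lower in IVF than in in vivo hatched blastocysts, with a median of 0.86. Microsomal glutathione transferase MGST1 averaged 366 ± 50.8 CPM in IVF hatched blastocysts and 20.0 ± 2.44 CPM in in vivo hatched blastocysts (4.21 ± 0.24, edgeR adjusted p = 9.63e-06). The transferase GSTA4 rose by 3.09 ± 0.36 (edgeR adjusted p = 0.000521) and the lipid hydroperoxide peroxidase GPX4 by 1.32 ± 0.24 (edgeR adjusted p = 0.0057). GPX8, named after its value was seen, was the one lower (-4.17 ± 1.18, edgeR adjusted p = 0.0417). Of 19 genes of glutathione precursors and turnover, 4 were higher and 2 lower. Cystathionine gamma-lyase CTH, which makes cysteine inside the cell, averaged 1699 ± 258 CPM in IVF hatched blastocysts and 347 ± 84.0 CPM in in vivo hatched blastocysts (2.31 ± 0.26, edgeR adjusted p = 0.000479). GGACT, which this list includes, was also higher (1.20 ± 0.26, edgeR adjusted p = 0.0132). The glutamate and cysteine transporter SLC1A1 was lower (-6.26 ± 1.20, edgeR adjusted p = 0.00797), at 0.265 to 0.714 CPM after IVF, against 17.4 and 58.9 CPM in vivo.

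Thioredoxins and peroxiredoxins had 3 of 11 genes higher in IVF hatched blastocysts and none lower: PRDX3, the mitochondrial peroxiredoxin (1.61 ± 0.25, edgeR adjusted p = 0.00244), thioredoxin TXN (2.02 ± 0.36, edgeR adjusted p = 0.00566) and PRDX5 (1.46 ± 0.31, edgeR adjusted p = 0.0121). By edgeR, none of 14 genes of NRF2 control and its partners passed (2 at an unadjusted p under 0.05), and neither did any of the 3 tested genes of the superoxide dismutase and catalase list (1 at an unadjusted p under 0.05). ATF4, a stress factor that also drives SLC7A11, and its targets had 2 of 13 genes higher and 2 lower, with a median of -0.54. They were the serine synthesis enzyme PHGDH (3.55 ± 0.47, edgeR adjusted p = 0.00115) and the amino acid transporter SLC7A5 (1.53 ± 0.30, edgeR adjusted p = 0.00927) on one side, and SLC3A2 (-1.03 ± 0.24, edgeR adjusted p = 0.0198) and TRIB3 (-1.48 ± 0.42, edgeR adjusted p = 0.0406, named after its value was seen) on the other. FTH1, FTL, TXN and the peroxiredoxins have processed copies in mammalian genomes and the glutathione transferases have close relatives, so reads of these genes may have been split.

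In blastocysts the ATF4 list stood lower after IVF, with 4 of 13 genes lower, none higher and a median of -1.30, where 6.09% of all genes were higher and 4.74% lower, with a median of 0.05. SLC7A5 averaged 35.3 ± 12.5 CPM in IVF blastocysts and 102 ± 13.8 CPM in in vivo blastocysts (-1.53 ± 0.28, edgeR adjusted p = 0.00898). SLC7A1, a carrier of cationic amino acids, was at 0.135 to 0.463 CPM after IVF, against 7.09 and 7.22 CPM in vivo (-4.46 ± 0.98, edgeR adjusted p = 0.0175). SESN2 (-1.75 ± 0.39, edgeR adjusted p = 0.0183) and the glutathione-degrading enzyme CHAC1 (-3.49 ± 0.86, edgeR adjusted p = 0.0264) were lower as well. ATF4 itself had a difference of -0.05 ± 0.31 (edgeR adjusted p = 0.946).

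The other lists were mixed in blastocysts, and some of their counts, such as those of the control genes and the glutathione users, lay near the 10.8% called over all genes. Of the NRF2 control genes, BTRC (-1.26 ± 0.27, edgeR adjusted p = 0.0169) and NFE2L1 (-1.46 ± 0.41, edgeR adjusted p = 0.0419) were lower after IVF, 2 of 14. The other NRF2 targets had 2 of 19 higher, the iron exporter SLC40A1 (3.99-fold, edgeR adjusted p = 0.0156) and ABCC1 (3.40 ± 0.82, edgeR adjusted p = 0.0252), and ferritin heavy chain FTH1 lower (-1.48 ± 0.24, edgeR adjusted p = 0.00566). MGST1 (1.36 ± 0.21, edgeR adjusted p = 0.00456) and GLO1 (0.94 ± 0.25, edgeR adjusted p = 0.0359) were the 2 of 21 glutathione users called. TALDO1 was lower (-0.87 ± 0.17, edgeR adjusted p = 0.0117), the only one called of 6 NADPH genes. GGACT (2.65 ± 0.28, edgeR adjusted p = 0.00115) was 1 of the 3 higher in the list of 19 precursor and turnover genes, with CHAC1 the one lower. TXN (1.77 ± 0.36, edgeR adjusted p = 0.0127), its inhibitor TXNIP (2.09 ± 0.46, edgeR adjusted p = 0.018) and PRDX1 (1.98 ± 0.47, edgeR adjusted p = 0.0229) were higher among 11 thioredoxin and peroxiredoxin genes, and 1 was lower.

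At in vivo hatching, 5 of 21 glutathione users, 3 of 6 NADPH genes and 5 of 13 genes of the ATF4 list were lower, and none in these lists was higher. Over all genes, 6.96% were higher and 7.39% lower. MGST1 fell to 20.0 ± 2.44 CPM in in vivo hatched blastocysts, against 168 ± 17.5 CPM in in vivo blastocysts (-3.10 ± 0.24, edgeR adjusted p = 0.000145). GSTA4 (-2.69 ± 0.37, edgeR adjusted p = 0.00153), the peroxidase GPX1 (-1.80 ± 0.28, edgeR adjusted p = 0.00248), TALDO1 (-1.71 ± 0.20, edgeR adjusted p = 0.000813), ME1 (-2.56 ± 0.43, edgeR adjusted p = 0.00395) and IDH1 (-1.08 ± 0.22, edgeR adjusted p = 0.00986) fell too. PHGDH (-4.22 ± 0.50, edgeR adjusted p = 0.000889), SLC7A5 (-3.19 ± 0.34, edgeR adjusted p = 0.000528) and asparagine synthetase ASNS (-2.80 ± 0.53, edgeR adjusted p = 0.00656) were the ATF4 targets with the smallest p. The median was -0.49 for glutathione use, -0.57 for NADPH supply and -1.65 for the ATF4 list.

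Other lists had genes on both sides at in vivo hatching, where 14.3% of all genes were called. FTH1 (-2.49 ± 0.29, edgeR adjusted p = 0.000813) and BLVRB (-1.42 ± 0.30, edgeR adjusted p = 0.01) fell and ABCC4 rose (3.38 ± 0.83, edgeR adjusted p = 0.0209) among 19 other NRF2 targets. Of the precursor genes, CTH (-1.70 ± 0.27, edgeR adjusted p = 0.00277) and CBS (-6.43 ± 1.08, edgeR adjusted p = 0.00378), both of the transsulfuration route to cysteine, fell, while SLC1A1 rose (4.99 ± 1.34, edgeR adjusted p = 0.0296), 2 of 19 in each direction. PRDX1 rose (2.56 ± 0.50, edgeR adjusted p = 0.00755), and PRDX3 (-1.17 ± 0.26, edgeR adjusted p = 0.0132) and PRDX2 (-1.17 ± 0.29, edgeR adjusted p = 0.0208) were among the 4 of 11 that fell. The control genes had 2 higher of 14, the KEAP1-binding DPP3 (0.87 ± 0.24, edgeR adjusted p = 0.031) and the NRF2 antagonist BACH1 (1.62 ± 0.46, edgeR adjusted p = 0.0361). The KEAP1-binding autophagy receptor SQSTM1 (-1.72 ± 0.47, edgeR adjusted p = 0.0314) and, named after its value was seen, NFE2L1 (-1.53 ± 0.46, edgeR adjusted p = 0.0463) were the 2 lower. None of the 3 tested genes of the superoxide dismutase and catalase list passed by edgeR (1 with an unadjusted p below 0.05).

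**Figure D5:**
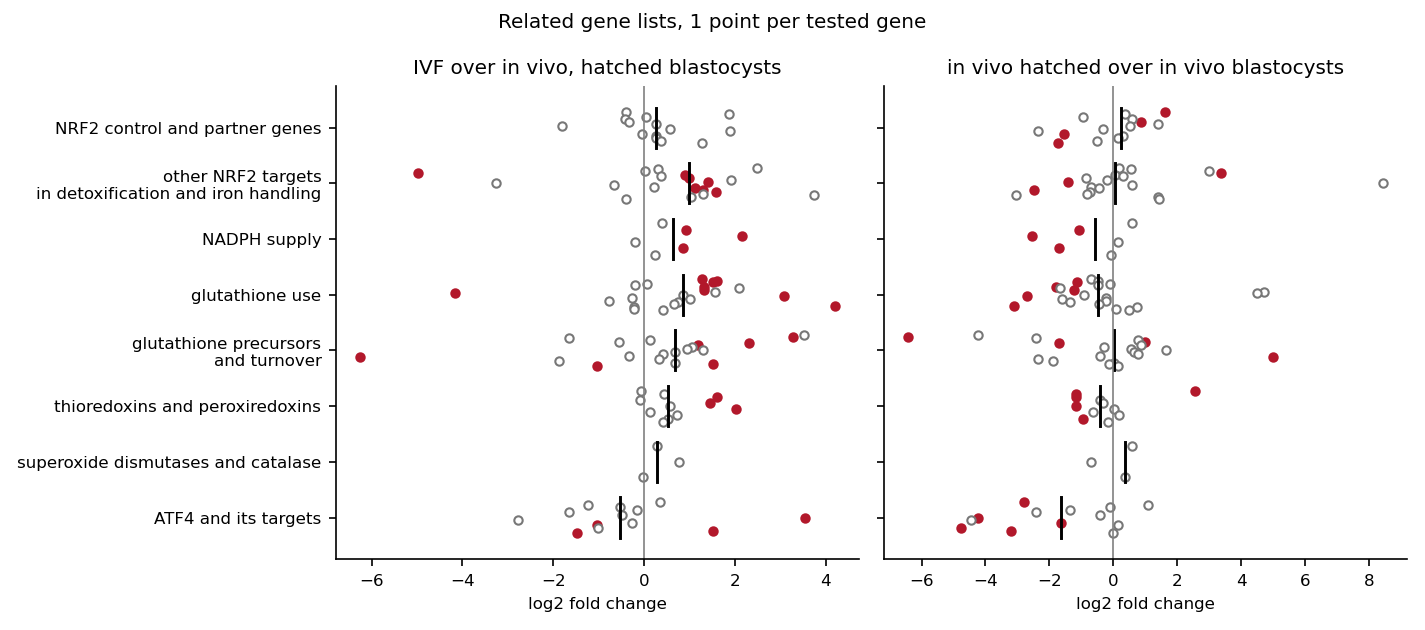
Log2 fold change of each tested gene of 8 related lists, for IVF over in vivo hatched blastocysts and for in vivo hatched over in vivo blastocysts. Filled red points were called at an adjusted p under 0.05 over all genes, open points were not, and black bars are list medians. In the glutathione use list, 7 points are filled to the right in the first panel and 5 to the left in the second.

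No gene of these lists was called between IVF hatched blastocysts and IVF blastocysts. At an unadjusted p under 0.05 there were 1 of 21 glutathione users, 2 of 19 other NRF2 targets, 3 of 19 precursor genes, 2 of 11 thioredoxin and peroxiredoxin genes, 1 of 14 control genes, 2 of 13 genes of the ATF4 list, 1 of 3 of the superoxide dismutase and catalase list and none of 6 NADPH genes.

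Against 4-cell embryos, most called genes of the lists were higher in IVF blastocysts, while 25.7% of all genes were higher and 30.6% lower. The share called in the other NRF2 targets, the control genes, the NADPH genes and the ATF4 list lay near the 56.3% of all genes. Thioredoxins and peroxiredoxins had 9 of 11 higher and 1 lower, led by PRDX3 (6.20 ± 0.37, edgeR adjusted p = 1.65e-05). Glutathione use had 13 of 21 higher and 3 lower, with the glutaredoxin GLRX (7.22 ± 0.54, edgeR adjusted p = 3.15e-05) and GPX4 (5.24 ± 0.44, edgeR adjusted p = 4.48e-05). Precursors and turnover had 9 of 19 higher and 4 lower, with SLC3A2 (6.13 ± 0.44, edgeR adjusted p = 2.77e-05). Other NRF2 targets had 7 of 19 higher and 3 lower, with ESD (4.72 ± 0.34, edgeR adjusted p = 2.68e-05) and FTH1 (4.28 ± 0.38, edgeR adjusted p = 5.8e-05). NADPH supply had 3 of 6 higher, with TALDO1 (4.09 ± 0.33, edgeR adjusted p = 4.05e-05), and SOD2 (5.24 ± 0.42, edgeR adjusted p = 3.96e-05) and CAT (5.18 ± 0.48, edgeR adjusted p = 7.34e-05) were 2 of 3. Control genes had 5 of 14 higher and 3 lower, with DPP3 (3.68 ± 0.51, edgeR adjusted p = 0.000481), RBX1 (2.33 ± 0.39, edgeR adjusted p = 0.00131) and FBXW11 (-2.59 ± 0.44, edgeR adjusted p = 0.00135), and the ATF4 list had 6 of 13 higher and 1 lower.

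Some genes had no count in any 4-cell library, and against a floor of 3 counts in each library their folds are lower bounds. OSGIN1 was at least 598-fold higher in IVF blastocysts and at least 842-fold higher in IVF hatched blastocysts. For TXNRD2, the mitochondrial thioredoxin reductase, the bounds were 572-fold and 762-fold, for OPLAH 242-fold and 203-fold, and for CBS 199-fold and 65.9-fold. In IVF hatched blastocysts the lists had 13 of 21 (glutathione use), 9 of 11 (thioredoxins and peroxiredoxins), 10 of 19 (precursors), 9 of 19 (other NRF2 targets), 5 of 14 (control), 4 of 13 (ATF4), 3 of 6 (NADPH) and 2 of 3 (superoxide dismutases and catalase) genes higher than in 4-cell embryos. In the same order 3, 1, 4, 4, 3, 1, 0 and 0 were lower. Over all genes 25.7% were higher and 30.9% lower, 56.6% in all, and the control and NADPH lists lay near that share.

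Genes with the profile most like that of 3 of the 9 genes were ranked by Pearson's r of log2(CPM + 1) over all 13 libraries, among 9037 genes with a unique name and a mean of at least 5 CPM. For NQO1 they were AFAP1L1 (r = 0.934), PPAG3 (0.922), TBC1D16 (0.920), RNASE12 (0.919) and FRMD8 (0.915). PPAG3, a pregnancy-associated glycoprotein of a large family, averaged 64.1 CPM in IVF hatched blastocysts, against 0.381 CPM in in vivo hatched blastocysts, and its reads may be split among relatives. For SLC7A11 they were TCF7L1 (r = 0.925), UTP11 (0.919), SEPT11 (0.892), DEGS2 (0.891) and FOXN3 (0.877). DEGS2 averaged 34.4 CPM in IVF blastocysts, against 136 CPM in in vivo blastocysts, and 24.1 CPM in IVF hatched blastocysts, against 8.21 CPM in in vivo hatched blastocysts. For GSS they were DPM3 (r = 0.995), ATP6V1G3 (0.994), FBXO3 (0.994), HSD17B10 (0.994) and GLB1 (0.994). The GSS correlations span the step from 4-cell to later embryos, which many genes share, and libraries of a group are not independent points.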

How the data were processed

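The authors deposited 1 gene table on Sscrofa11.1 with whole-number read counts per gene and library, not normalised, and with TPM values, which the authors scaled by gene length and library size. Of 39 columns of values, 25 were used (13 of counts and 12 of TPM) and 14 were not: those of FPKM and the TPM of the unnumbered library. Tools in the submitters' processing notes, none with a stated role, are RSEM, StringTie 1.3.1, HISAT2, Bowtie2 and fastp 0.18.0. How counts were made, how shared reads were split and whether strand was used are not given in the sources used here. Per the labels' protocols, RNA was extracted with TRIzol, enriched on oligo(dT) beads, made into libraries with an NEBNext Ultra kit and read as Illumina pairs. Gene positions come from RefSeq for the same build.

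Differences in counts were tested by edgeR 4.0.16 (R 4.3.3, quasi-likelihood fit) after TMM scaling and removal of low-count genes by filterByExpr. P-values were adjusted by Benjamini-Hochberg over all genes, and a call is an adjusted p under 0.05. Standard errors of log2 differences were derived from the test, as the absolute log2 difference over the square root of its F statistic. All 10 blastocyst and hatched libraries were fitted together (15528 genes), as were the 9 IVF libraries (16312 genes) for comparisons with 4-cell embryos. CPM used TMM factors over all 13 libraries. A floor of 3 counts was 0.0637 to 0.0915 CPM, which covers counting error only. No pair of libraries in a group agreed within counting noise (lowest chi-square per degree of freedom 72.5), so each counts as 1 sample. Since separate cultures or animals are not stated, the spread behind each p-value is that between these libraries and may be technical. Alternatives were RLE factors, DESeq2 1.42.0, no count filter, other sets of libraries in the fit, the replicate block, each library left out, and CPM without TMM factors.

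The 9 genes and all lists were chosen with earlier results of these data known. All 9 are named in each comparison, and from each list up to 3 called genes with the smallest p. Exceptions are said to be named after their values were seen. In blastocysts, 1 gene that this rule names is not reported here.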

Additional observations from a re-analysis of the deposited data

Results flagged for a closer look

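For 20 genes of the NRF2 set and its related lists, the change between hatched and unhatched blastocysts differed between IVF and in vivo embryos by the interaction term of the edgeR fit (adjusted p under 0.05 over all genes). Values are the IVF change minus the in vivo change on the log2 scale. Of the 9 genes, SLC7A11 (6.98), NQO1 (4.93), SRXN1 (2.28) and GSS (1.47) were among them. For these 4 the values are a description and no test, since the contrast is made of the differences between IVF and in vivo embryos on which the genes were picked. The related lists were also chosen with earlier results of these data known, so the p-values of their genes may not be independent of that choice.

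Of the glutathione users, MGST1 differed by 2.85 (edgeR adjusted p = 0.00153), GSTA4 by 3.58 (edgeR adjusted p = 0.00343) and GPX1 by 2.11 (edgeR adjusted p = 0.0098). GSTA4 averaged 83.3 ± 28.1 CPM in IVF hatched blastocysts and 44.6 ± 7.14 CPM in IVF blastocysts, and 9.86 ± 1.11 CPM in in vivo hatched blastocysts and 62.0 ± 18.3 CPM in in vivo blastocysts. The iron store FTH1 differed by 2.78 (edgeR adjusted p = 0.00343), BLVRB by 1.73 (edgeR adjusted p = 0.0278) and ABCC4 by -4.22 (edgeR adjusted p = 0.0429). All 3 called NADPH genes were in the same direction, TALDO1 at 1.74 (edgeR adjusted p = 0.00582), ME1 at 2.42 (edgeR adjusted p = 0.0293) and IDH1 at 1.21 (edgeR adjusted p = 0.0384).

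Enzymes of cysteine and serine synthesis were among them: PHGDH at 4.47 (edgeR adjusted p = 0.00431), CTH at 1.62 (edgeR adjusted p = 0.0244) and CBS at 4.83 (edgeR adjusted p = 0.0421). SLC7A5 differed by 3.06 (edgeR adjusted p = 0.00453), PRDX3 by 1.63 (edgeR adjusted p = 0.0218), PRDX2 by 1.46 (edgeR adjusted p = 0.0456) and GGACT by -1.45 (edgeR adjusted p = 0.0408). By list, 3 of 6 NADPH genes, 3 of 21 glutathione users, 3 of 19 other NRF2 targets, 3 of 19 precursor genes, 2 of 11 thioredoxin and peroxiredoxin genes, 2 of 13 genes of the ATF4 list and none of 14 control genes were called, beside 4.71% of all genes.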

How the results depend on the processing

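Across the called genes of the set no fold changed direction under any alternative run. The 14 turned signs belonged to genes not called, each with 1 library left out. Over libraries left out, the log2 values ranged in IVF over in vivo blastocysts from -0.66 to 1.48 (NQO1; -0.18 without IVF blastocyst library 3), -0.20 to 0.50 (TXNRD1), -0.81 to 0.049 (GCLC) and -0.61 to 0.048 (SRXN1), and in hatched blastocysts from -0.045 to 0.27 (GCLC, 0.24 among numbered libraries). They ranged at in vivo hatching from -0.44 to 0.39 (GCLC; 0.0035 without in vivo hatched library 2), at IVF hatching from -0.15 to 0.17 (NFE2L2; 0.032 without IVF hatched library 3), -0.013 to 1.49 (SLC7A11) and -0.010 to 0.23 (GSS), and in the difference from -0.28 to 0.40 (TXNRD1; -0.036 without IVF hatched library 3). The cause was not tested.

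Genes called in IVF against in vivo blastocysts (1681) were 2944 by DESeq2, 2749 without the count filter, 7 with all 13 libraries in the fit and 1028 with the replicate block, which pairs libraries that share only a number and left out the unnumbered library. KEAP1 was not called there with the block. For hatched blastocysts (1839) they were 3001, 2850 and 92 in the first 3 of these settings. For in vivo hatching (2228) they were 3562 by DESeq2, 101 with all 13 libraries and 757 with only the 4 libraries compared. For IVF hatching (7) they were 51 by DESeq2, 162 without the filter and 0 with all 13 libraries, and for the difference (732) 1879, 1855 and 1. Of the 9 genes, the fit of all 13 libraries called 0, 0, 1 and 0 in blastocysts, hatched blastocysts, in vivo hatching and the difference, against 3, 4, 6 and 4. Fits of only the groups compared also ended the calls of KEAP1 in blastocysts (0.89), SRXN1 between IVF blastocysts and 4-cell embryos (3.45), and NQO1 (5.12) and GCLM (1.44) between IVF hatched blastocysts and 4-cell embryos. In vivo hatching with only its 4 libraries called 1, and IVF hatching without the filter 1. No paired analysis was possible for comparisons with in vivo hatched blastocysts because only 1 of their libraries carries a number; in the other comparisons the block also ended the calls of SLC7A11 (-2.16) and GCLM (1.56) between IVF hatched blastocysts and 4-cell embryos.

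With 1 library left out, genes called ranged from 320 to 2022 (IVF against in vivo blastocysts), 513 to 2074 (hatched), 1064 to 2153 (in vivo hatching; 2141 among numbered libraries), 4 to 7 (IVF hatching), 333 to 969 (difference), 7622 to 11451 (blastocysts against 4-cell) and 7511 to 11531 (hatched against 4-cell). Counts of the 9 genes called ranged from 1 to 3, 3 to 4, 4 to 6, 0 to 0, 3 to 5, 5 to 8 and 5 to 9 in the same order. Genes near the floor of 3 counts, such as NQO1 in 4-cell libraries 1 and 3, are limited by depth. DESeq2 gave no adjusted p for NQO1 and SRXN1 in the comparisons with 4-cell embryos. Their 4-cell reads were 0, 87 and 0 for NQO1, and 1593, 13 and 105 for SRXN1. The reason for the missing values was not tested. Same-numbered libraries of the groups compared with the block correlated at -0.153 to 0.0426 in their deviations from the group means, so the numbers were not taken to pair them. With the block, SRXN1 stood at 4.55 in IVF blastocysts and 5.44 in IVF hatched blastocysts over 4-cell embryos, and NQO1 at 6.83 in the hatched ones.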
